A study of Homo sapiens with 3 samples.

Results

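TMEM108 and THSD7A are long genes that were selected on the position of their CSTF2tau sCLIP reads, which appeared to gather near the 5' end of their listed spans. They are 2 of the 13356 Ensembl gene IDs in the 3 deposited peak lists, and their peaks were found by the ID that starts each peak name, ENSG00000144868 for TMEM108 and ENSG00000005108 for THSD7A. The values described below on position along the span are therefore those that chose the genes, and they are given as a description without a test. The THSD7A reads lay near the 5' edge in the 2 lists that hold the gene. The data went against this choice for TMEM108, whose reads lay in 2 separate blocks, the later of which held most of the reads in replicate 2.

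The lists come from WT BE(2)-C cells, a human line established from a neuroblastoma, with no treatment named in the labels. Ultraviolet light crosslinked proteins to RNA in the living cells, the RNA was partly digested, and complexes were recovered with an antibody against CSTF2tau (3 biological replicates of 1 group). All samples share this design, and neither input nor control antibody libraries were analysed here, so values were set beside each other between replicates, within a list, or beside other gene IDs. BE(2)-C is a single line, and its neuroblastoma markers were not checked because the deposited lists hold gene IDs without symbols.

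CSTF2tau is a paralogue of CSTF2, the subunit of the cleavage stimulation factor that binds U-rich and GU-rich RNA just downstream of cleavage sites and so helps to form mRNA 3' ends. TMEM108, also called retrolinkin, is a transmembrane protein of neurons; work in mouse neurons places it on endosomes that carry the BDNF receptor TrkB. THSD7A is a membrane protein with thrombospondin type 1 repeats, known as a target of autoantibodies on kidney podocytes and, in endothelial cells, for a role in migration. Genes of this length are mostly intron, so that RNA from them can be recovered before splicing as well as after it. Neither an hg19 sequence nor an hg19 annotation was used here, so peaks are given by hg19 position and were not assigned to exons, introns or UTRs. RefSeq on GRCh38.p14 lists 2 start sites for TMEM108 and 1 for THSD7A; the build differs from that of the peaks, which were not placed relative to these sites.

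Replicates 1, 2 and 3 listed 105203, 18346 and 78761 peaks with 736059, 108434 and 387784 reads. These are reads inside listed peaks and not the sequencing depth. Reads of a peak are the last number in its name, a reading that no source states. Replicate 2 was the smallest list, so its values carry the widest counting error. Intervals are exact Clopper-Pearson intervals at the 95% level and cover counting error only.

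TMEM108 was one of the gene IDs with the most reads in every list. It lies on the plus strand, and its peaks ran from chr3:132764909 to chr3:133116379 (hg19), a listed span of 351 kb. It had 3215 reads in 320 peaks in replicate 1, 586 reads in 87 peaks in replicate 2 and 1007 reads in 144 peaks in replicate 3. As a share of all listed reads this was 0.437% (95% interval 0.422 to 0.452%), 0.540% (0.498 to 0.586%) and 0.260% (0.244 to 0.276%), a mean of 0.412% ± 0.142 (SD, n = 3). The 3 intervals do not overlap, and the highest share was 2.08 times the lowest. TMEM108 nevertheless kept a similar place in the order of gene IDs, at rank 9 of 11152, 11 of 5173 and 11 of 10788. Shares are of reads on both strands. The minus strand held 48.7%, 49.6% and 62.9% of all listed reads in replicates 1, 2 and 3. The part of this imbalance in the share of TMEM108, a plus-strand gene, was not tested.

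THSD7A was strong in replicates 1 and 2 and not listed in replicate 3. It lies on the minus strand, and its peaks ran from chr7:11871232 at the 5' edge to chr7:11411526 at the 3' edge (hg19), a listed span of 460 kb. It had 1799 reads in 178 peaks in replicate 1 and 783 reads in 104 peaks in replicate 2, or 0.244% (0.233 to 0.256%) and 0.722% (0.673 to 0.774%) of the listed reads. Its share in replicate 2 was 2.95 times that in replicate 1, and it ranked 5 of 5173 there, against 25 of 11152 in replicate 1. At these shares, replicate 3 would have held 948 or 2800 reads of THSD7A, and its list has 0. These figures use reads of both strands and take no account of the larger minus-strand part of replicate 3.

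Along TMEM108, reads fell into 2 blocks with a sparse stretch between them, as the plot of its peaks by distance shows. Positions were measured from the 5' edge of the listed span, and the span was divided into 10 equal bins of 35.1 kb, with bin 1 at the 5' edge; the grouping of bins into blocks was chosen after the profile was seen. The 5' block, up to 105 kb, held 51.3%, 25.1% and 43.0% of the TMEM108 reads in replicates 1, 2 and 3. The 3' block, from 176 to 316 kb, held 43.8%, 68.3% and 50.7%. In replicate 1 the 5' block held more reads, and in replicates 2 and 3 the 3' block did. The 3' block is also the longer of them. Per kb, the 5' block had more reads in replicates 1 and 3 and the 3' block in replicate 2. In replicate 3 the order was thus reversed, at 4.11 reads per kb in the 5' block against 3.63.

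**Figure D1:**
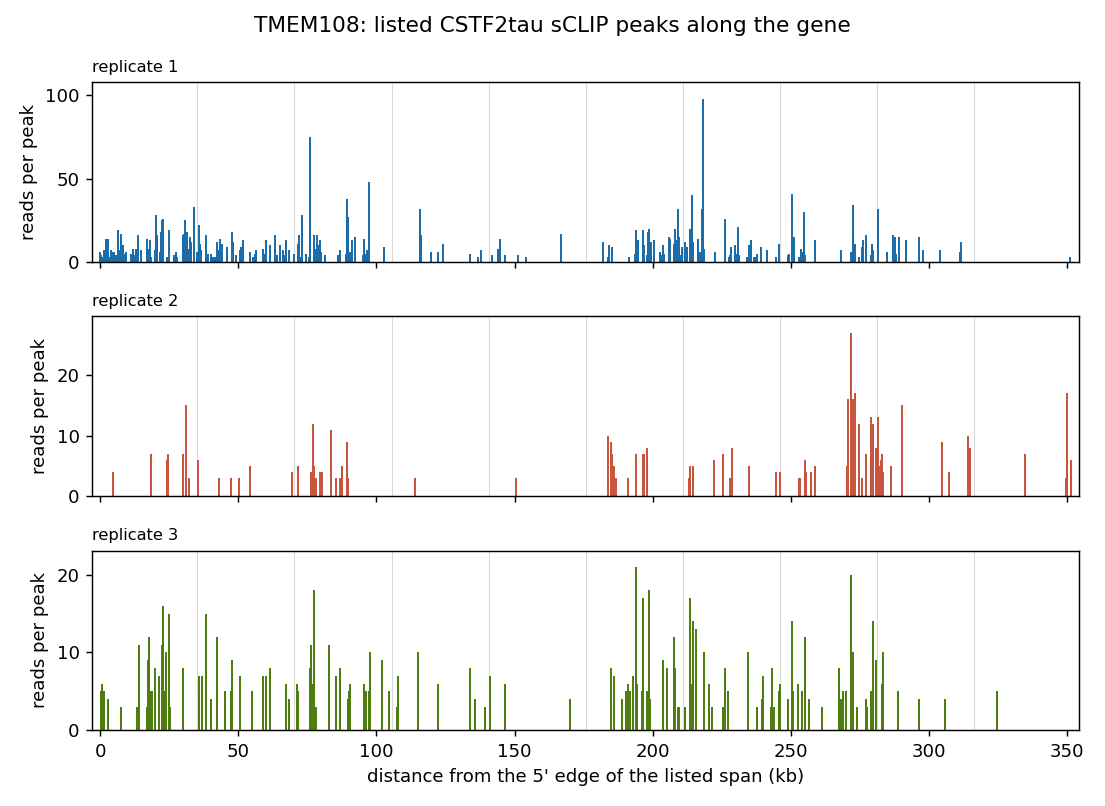
Reads per listed peak (y axis, scaled separately in each panel) against distance from the 5' edge of the listed span of TMEM108 in kb (x axis), with 1 panel per replicate and grey lines at the edges of the 10 bins. Peaks gather up to 105 kb and again from 176 to 316 kb in each replicate, with few between.

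The stretch between the blocks, from 105 to 176 kb, was poor in peaks in every replicate. It held 17, 2 and 10 peaks with 154, 6 and 58 reads, which is 4.79%, 1.02% and 5.76% of the TMEM108 reads over 2 of the 10 bins. In reads per kb it had 2.19 in replicate 1, against 15.6 in the 5' block and 10.0 in the 3' block. Replicate 2 had 0.0854 reads per kb there, against 1.39 and 2.85, and replicate 3 had 0.825, against 4.11 and 3.63. The sparse stretch was thus below both blocks in all 3 lists. The longest gap without a listed peak lay inside it in replicates 2 and 3, at 36.6 kb starting 114 kb from the 5' edge and at 23.6 kb starting 147 kb from it. In replicate 1 the longest gap, of 39.5 kb, lay near the 3' end and started at 312 kb.

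Bin 1 of TMEM108 held 792 reads in replicate 1, 49 in replicate 2 and 167 in replicate 3. These made up 24.6% (95% interval 23.2 to 26.2%), 8.36% (6.25 to 10.9%) and 16.6% (14.3 to 19.0%) of its reads, a mean of 16.5% ± 8.14 (SD, n = 3). An even spread would put 10% there, and replicate 2 was not above that. Gene IDs with a listed span of at least 200 kb, compared further below, had medians of 17.3%, 11.8% and 14.4% in bin 1. In replicates 1, 2 and 3, 169 of 484, 126 of 219 and 215 of 517 of them had a higher share than TMEM108. Bin 10 held 3, 33 and 5 reads in replicates 1, 2 and 3. The contrast between the ends therefore came mostly from a bin 10 with almost no reads in replicates 1 and 3, where the log2 ratio of bin 1 to bin 10 was 7.82 and 4.93, against 0.56 in replicate 2.

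Bins 1 and 10 were also compared in every gene ID with at least 5 loci and 10 reads in both bins together. Summed reads entered an exact binomial test, two-sided and adjusted by Benjamini-Hochberg, and a call at 0.05 also needed each replicate with reads in these bins to lean the same way. Of 6382 gene IDs tested, 900 were called at the 5' end, which is 14.1%, and 1158 at the 3' end, which is 18.1%. Among the 679 tested gene IDs with a listed span of at least 200 kb, 241 were called at the 5' end, or 35.5%, and 95 at the 3' end, or 14.0%. These counts are given as the background of all gene IDs. The test takes reads as independent, although reads of 1 peak are not. With each peak counted once, 225 gene IDs were called at the 5' end and 218 at the 3' end. No test result is given for TMEM108 and THSD7A, because this is the contrast that chose them. TMEM108 had 1008 reads in bin 1 and 41 in bin 10 over all lists, and THSD7A had 1213 and 61. With the outer 20% of the span at each end, TMEM108 had 1523 reads in bins 1 and 2 and 310 in bins 9 and 10 over all lists. It had 1159 against 157 in replicate 1 and 291 against 34 in replicate 3. In replicate 2 it had 73 against 119, so that only this list leaned to the 3' end. THSD7A had 1998 reads against 65 over all lists. At the outermost locus of each end TMEM108 had 6 against 6 reads and THSD7A had 7 against 17, so that neither gene had more reads at its 5' end there.

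The middle of the TMEM108 reads moved with the replicate. The position by which 50% of its reads had been passed was 97.3 kb from the 5' edge in replicate 1, 258 kb in replicate 2 and 186 kb in replicate 3, and by 90% it was 259, 305 and 273 kb. The first of these lies inside the 5' block and the others inside the 3' block. Over 36 windows of 10 kb, the reads of replicates 1 and 3 had a Spearman rho of 0.84, those of replicates 1 and 2 had 0.47, and those of 2 and 3 had 0.40. Windows share the gene and the libraries, so these are descriptions only.

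In THSD7A, reads were crowded into the 5' part in both replicates that list it. Each of the 10 bins of its span is 46.0 kb long. Bin 1 held 848 of its reads in replicate 1, or 47.1% (95% interval 44.8 to 49.5%), and 365 in replicate 2, or 46.6% (43.1 to 50.2%). Bin 2 held 455 and 330 reads, and bin 3 held 307 and 88. Bins 1 to 3 together, 138 kb, held 89.5% of the reads in replicate 1 (88.0 to 90.9%) and 100% in replicate 2 (99.5 to 100%). By distance, 50% of the reads had been passed by 50.2 kb in replicate 1 and 59.5 kb in replicate 2, and 90% by 144 kb and 97.3 kb.

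**Figure D2:**
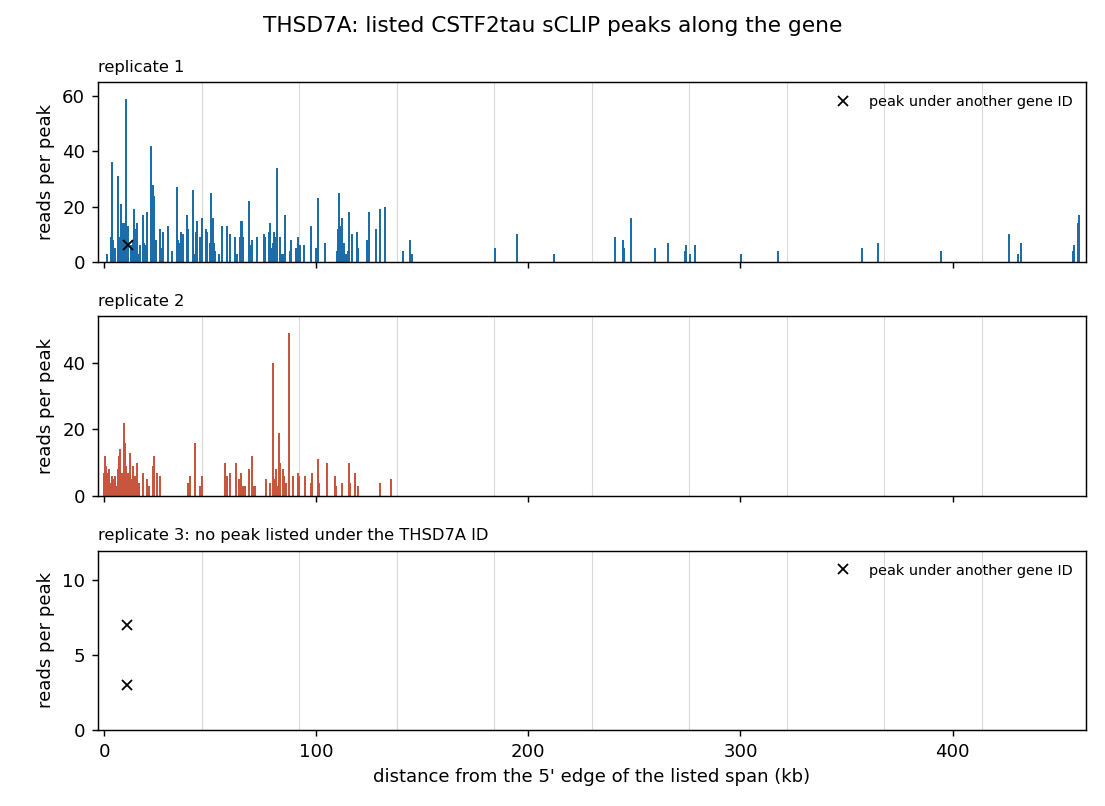
Reads per listed peak (y axis, scaled separately in each panel) against distance from the 5' edge of the listed span of THSD7A in kb (x axis), with 1 panel per replicate, grey lines at the edges of the 10 bins, and crosses for same-strand peaks listed under another gene ID. Most peaks of replicate 1 and all of replicate 2 lie in the first 138 kb, and replicate 3 has 2 peaks under another ID.

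Beyond this 5' part the replicates differed. Replicate 1 had 29 peaks in bins 4 to 10 with a median of 5 reads, and replicate 2 had none. The last peak of replicate 2 lay 135 kb from the 5' edge, and that of replicate 1 lay 460 kb from it. The 3' edge of the listed span is therefore set by replicate 1 alone. Within the span of replicate 2 by itself, 135 kb, the first 10% held 33.0% of its reads, so the closeness of 46.6% and 47.1% depends on a span taken from replicate 1.

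Peak names carry a running number that follows position within a gene ID in each list, and numbers without a listed peak leave gaps. In replicate 2 the last THSD7A peak toward the 3' end had number 22, which leaves 21 numbers beyond it with no listed peak. In replicate 1 only 1 number lay beyond the last listed peak. No source used here states what an unlisted number stands for. Over the whole ID, 85 of 263 numbers had no peak in replicate 1, or 32.3%, and 94 of 198 in replicate 2, or 47.5%. For TMEM108 the shares were 31.5%, 50.8% and 45.9% in replicates 1, 2 and 3.

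The 5' crowding of THSD7A was made of both more peaks and taller ones in replicate 1. Bins 1 to 3 had 10.8 peaks per 10 kb with a mean of 10.8 reads, and the rest of the span had 0.901 peaks per 10 kb with a mean of 6.52 reads. In TMEM108, peaks of bins 1 to 3 were not taller than the others. They averaged 9.48 reads in replicate 1, against 10.7 in the rest of the span, 5.44 against 7.32 in replicate 2, and 6.98 against 7 in replicate 3. Its peaks were denser in bins 1 to 3 in replicates 1 and 3, at 16.5 and 5.88 per 10 kb against 5.93 and 3.33 in the rest, and about equally dense in replicate 2, at 2.56 against 2.44.

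**Figure D3:**
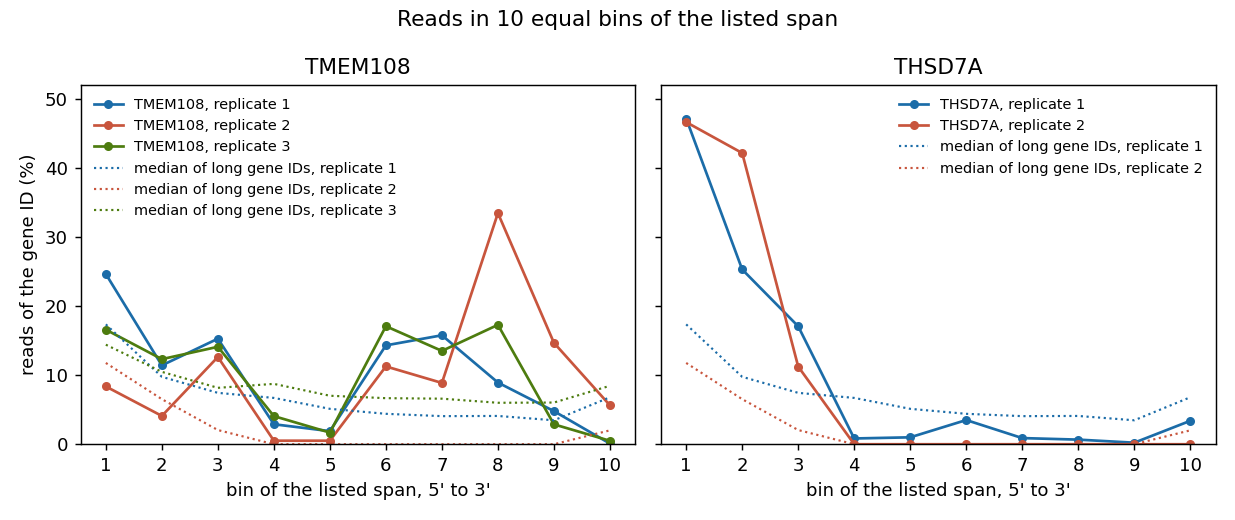
Percentage of the reads of TMEM108 (left) and THSD7A (right) in each of 10 equal bins of the listed span, from 5' to 3' (x axis), as solid lines with 1 colour per replicate; dotted lines give the median over gene IDs with a listed span of at least 200 kb. THSD7A is low after bin 3 in replicate 1 and at 0 there in replicate 2, and TMEM108 has a low at bins 4 and 5 and higher values again from bin 6.

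Long gene IDs in general had more reads in their early bins, and in bins 1 to 3 TMEM108 lay in the middle of them. The comparison took gene IDs with a listed span of at least 200 kb and at least 50 reads in a replicate, or 20 in replicate 2. In bins 1 to 3, TMEM108 had 51.3% in replicate 1, against a median of 44.5% over 484 gene IDs, with 192 of them higher. It had 25.1% in replicate 2, against a median of 44.4% over 219, and 43.0% in replicate 3, against 37.5% over 517. TMEM108 stayed between the quartiles of these gene IDs in all 3 replicates, which were 25.2 and 63.7% in replicate 1, 15.2 and 76.0% in replicate 2, and 24.8 and 49.4% in replicate 3. In bin 10, TMEM108 was among the lower gene IDs in replicates 1 and 3: 413 of 484 gene IDs had a higher share than its 0.0933% in replicate 1, and 489 of 517 a higher share than its 0.497% in replicate 3. In replicate 2, where its share was 5.63%, 98 of 219 were higher. In bins 1 to 3 THSD7A stood near the top, with 9 of 484 gene IDs higher in replicate 1. In replicate 2, no gene ID was higher and 8 others also had 100%. These places are descriptions of genes chosen for this measure.

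**Figure D4:**
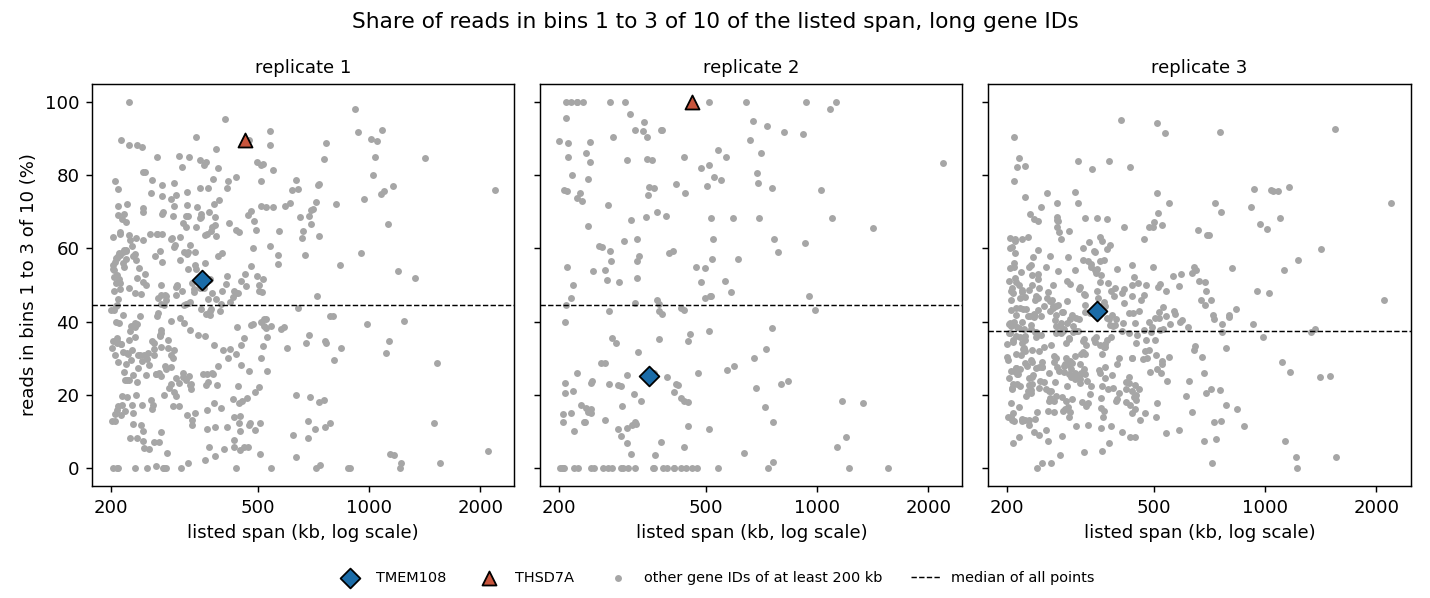
Percentage of reads in bins 1 to 3 of the listed span (y axis) against the length of the span in kb on a log scale (x axis) for gene IDs of at least 200 kb, with 1 panel per replicate; the dashed line is the median. THSD7A lies at 89.5% and 100% in replicates 1 and 2 and is not listed in replicate 3, and TMEM108 lies near the median in replicates 1 and 3 and below it in replicate 2.

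The 3' ends are where a factor of mRNA cleavage is known to act, and the last 5 kb of each span was looked at for this reason, a window chosen after the profiles were seen. TMEM108 had 3 reads there in replicate 1, 26 in replicate 2 and 0 in replicate 3. In replicate 2 these were 3 peaks and 4.44% of its reads, the tallest being chr3:133115060-133115137 with 17 reads, one of the 3 tallest TMEM108 peaks of that list. THSD7A had 41 reads in 4 peaks in the last 5 kb in replicate 1, or 2.28%, and 0 in replicate 2. Among the long gene IDs the median was 2.60%, 0% and 2.88% in replicates 1, 2 and 3. The 3' peaks of TMEM108 thus came mostly from replicate 2 and those of THSD7A from replicate 1.

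Single positions were shared between replicates in part. Within a list, same-strand peaks that overlapped were joined into clusters, and a cluster counted as shared if another replicate had a cluster over at least 1 nt of it. This measure was not used to choose the genes. For TMEM108, 25% of 320 clusters were shared in replicate 1 (95% interval 20.4 to 30.1%), 43.7% of 87 in replicate 2 (33.1 to 54.7%) and 45.1% of 144 in replicate 3 (36.8 to 53.6%). Over all gene IDs the shares were 15.3%, 35.4% and 16.9%. For THSD7A, 27.0% of 178 clusters were shared in replicate 1 (20.6 to 34.1%) and 39.4% of 104 in replicate 2 (30.0 to 49.5%). The intervals of both genes lay above the share of all gene IDs in replicate 1, and that of TMEM108 also in replicate 3. Those in replicate 2 include it. Clusters of 1 gene are not replicates, so this is a description and no test. The gene IDs were not matched for the density of their peaks, on which overlap by position also depends.

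Over all gene IDs, sharing went up with the reads of a cluster in each list, and for both genes it did so with exceptions. Of the THSD7A clusters of 20 or more reads in replicate 2, 0 of 3 were shared, a number too small to read. Median reads per cluster were 7, 5 and 6 for TMEM108 in replicates 1, 2 and 3, and 5, 4 and 4 over all gene IDs. Among clusters of 5 to 9 reads alone, 41.0% of 78 TMEM108 clusters were shared in replicate 3, against 22.0% over all gene IDs, but 18.4% of 125 in replicate 1, against 15.5%. THSD7A had 30.0% of 70 such clusters in replicate 1, against 15.5%, and 46.0% of 50 in replicate 2, against 41.7%. Without replicate 1 the mean share for TMEM108 was 20.3%, and without replicate 3 it was 21.1%, against 37.9% ± 11.2 (SD, n = 3) with all replicates. Leaving out a list removes clusters that could match, so the share of each list kept could not rise.

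Peaks of a gene ID that overlapped over all 3 lists were merged into loci. TMEM108 had 447 loci, of which 14 were listed in all 3 replicates (3.13%), 65 in 2 of them and 368 in 1. Over all gene IDs, 0.882% of 182182 loci were present in all 3. This background also counts gene IDs that a list lacks, whose loci cannot be in all 3. Replicate 2 lists 5173 of the 13356 IDs. These 14 loci held 6.35%, 20.1% and 16.2% of the TMEM108 reads. Of the 14, 11 lay in bins 6 to 10 and 3 in bin 3, with none in the first 70.3 kb. Presence in all lists needs a peak in replicate 2, which had 27 of its 87 TMEM108 peaks in bins 1 to 3. Of the 65 loci listed in 2 replicates, 38 lay in bins 1 to 3 and 25 in bins 6 to 10.

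A stretch of 8.20 kb, chr3:133036717-133044915, held 6 of these 14 loci and was picked after they were seen. It makes up 2.33% of the span and held 4.39%, 21.7% and 7.75% of the TMEM108 reads, from 141, 127 and 78 reads. Among the loci in all 3 replicates, the one with the highest mean share of all listed reads, chr3:133036717-133037044, is 328 nt long and had 6, 27 and 20 reads in replicates 1, 2 and 3. The next, chr3:133037378-133037517, had 16, 16 and 7 reads. In the 5' block, chr3:132842167-132842289 had 16, 5 and 18 reads.

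The tallest TMEM108 peak of replicate 1 overlapped no TMEM108 peak of the other replicates. It lay at chr3:132983029-132983046, was 18 nt wide and had 98 reads, 3.05% of the TMEM108 reads of that list. Peaks of the same ID with 32 and 31 reads touched it on either side without overlap. Such touching pairs were common for TMEM108 in replicate 1, at 58 of 319 neighbouring pairs, or 18.2%, against 5.30% over all gene IDs. Of the 58, 36 lay in bins 1 to 3. Replicates 2 and 3 had 0 touching pairs for TMEM108. The part of such pairs in the peak counts of the 5' block was not tested.

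THSD7A had 233 loci, of which 40 were present in both replicates 1 and 2, or 17.2%. Over all gene IDs 8.54% of loci were present in at least 2 lists, and over those with a span of at least 200 kb 8.76%. The background of all gene IDs also counts IDs found in only 1 list, whose loci cannot be shared. The 40 loci lay in bins 1 to 3, where all THSD7A peaks of replicate 2 lie. They held 30.0% of its reads in replicate 1 and 39.3% in replicate 2. Among these 40, the locus with the highest mean share was chr7:11788441-11788664, 82.7 kb from the 5' edge, with 9 reads in replicate 1 and 29 in replicate 2. The next of the 40 were chr7:11861227-11861430, at 9.91 kb, with 35 and 16 reads, and chr7:11770377-11770620, at 101 kb, with 37 and 11 reads. The tallest THSD7A peak of each list overlapped no THSD7A peak of the other: chr7:11861030-11861142 with 59 reads in replicate 1 and chr7:11783902-11784038 with 49 reads in replicate 2. Over 46 windows of 10 kb the reads of replicates 1 and 2 had a Spearman rho of 0.79.

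In replicate 3, the THSD7A region held 2 same-strand peaks under another gene ID, ENSG00000235920, with 10 reads in all. They lay at chr7:11860239-11860370 with 7 reads and at chr7:11860629-11860668 with 3 reads, 10.9 and 10.6 kb from the 5' edge. At the first of them, THSD7A had 13 reads in replicate 1 and 7 in replicate 2. ENSG00000235920 was also listed in replicate 1, with 6 reads inside the THSD7A peak of 13 reads. These 10 reads all lay in bin 1 of the THSD7A span, and are too few to describe a profile. They show that reads from this strand were listed in replicate 3 at a place where both other replicates have a THSD7A peak; how many more reads the replicate had in the region cannot be told from its list.

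Versions of the gene ID differed between lists. THSD7A carried version 1 in replicate 1 and version 10 in replicate 2, while TMEM108 carried version 9 in all 3. Across gene IDs, the version differed between replicates 1 and 2 for 2197 of the 4723 IDs in both (46.5%), between 1 and 3 for 3836 of 8808 (43.6%), and between 2 and 3 for 0 of 4640. The annotation behind replicate 1 therefore had other versions than that behind replicates 2 and 3. Of the 2 lists with matching versions, replicate 2 listed THSD7A and replicate 3 did not. Whether the annotation bears on the THSD7A peaks was not tested.

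The opposite strand was almost empty in both regions. Only 1 peak was found, in replicate 3 inside the TMEM108 span at chr3:132974778-132974841, with 4 reads under ENSG00000251011. No opposite-strand peak lay in the THSD7A span in any replicate. Within TMEM108, no same-strand peak was listed under any other ID.

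Other long gene IDs were ranked by how close their profile over the 10 bins was, measured as the percentage of reads that would have to change bin, averaged over replicates. For THSD7A, 209 gene IDs were compared over replicates 1 and 2. The closest were ENSG00000198846 on chr8 (distance 18.1%), ENSG00000068796 on chr5 (21.0%) and ENSG00000169282 on chr3 (21.1%), against a median distance of 59.9%. For comparison, the THSD7A profiles of replicates 1 and 2 were 16.9% apart. For TMEM108, 203 gene IDs were compared over 3 replicates, and the closest, ENSG00000164741 on chr8, was at 29.7%, ENSG00000249859 on chr8 at 34.3% and ENSG00000188641 on chr1 at 35.3%, with a median of 52.4%. TMEM108 itself differed by 13.6% between replicates 1 and 3, 39.9% between 1 and 2 and 33.1% between 2 and 3. The distance of the closest match lay within this range. That match, ENSG00000164741, had less in bins 1 to 3 than TMEM108 in each replicate. It held 18.7%, 19.0% and 23.3% there, against 51.3%, 25.1% and 43.0% for TMEM108. The profiles of TMEM108 and THSD7A were 41.5% apart in replicate 1 and 76.3% in replicate 2, both more than THSD7A differed from itself. The 41.5% of replicate 1 was only slightly above the 39.9% between replicates 1 and 2 of TMEM108.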

How the data were processed

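The authors deposited a peak list for each of the 3 replicates, without a header and with 8 columns. Per the submitters' processing notes, positions are on hg19 and the tools were FastQC, SAMtools, STAR and bedtools, with neither role nor version given. Which program called the peaks, and on which annotation, is not given in the sources used here. Each deposited p-value is the authors' own. It stayed below 0.05 for every peak and served here only as a filter in an alternative. Reads per peak, a score the authors put at the end of the peak name (at least 3), were read from that name: across peaks they had a Spearman rho of -0.99, -0.97 and -0.96 with that p-value. Positions are the authors' intervals, printed with starts counted from 1.

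The listed span ran from the first to the last peak of an ID over all replicates, and a peak was placed by its midpoint. Each span was cut into 10 equal bins. Log2 ratios carry 0.5 added reads. Scripts used Python 3.11.15, pandas 2.3.3 and scipy 1.17.1. The end test was checked on simulated data in which reads were drawn independently. That check could not show how the test behaves where reads of 1 peak are not independent. The reference table gave a symbol for 0 of the 13356 gene IDs, so the partner list of TMEM108, the list of thrombospondin-repeat proteins and the cell line markers could not be looked up and were left out. The members, lists and tests were chosen with earlier results of these data known. The rule for named items took both genes, any ID listed inside their spans and the 3 IDs with the closest profile to each.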

Additional observations from a re-analysis of the deposited data

How the results depend on the processing

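For the 14 main results, 76 alternative values were computed, of which 54 stayed within 1 SD of the replicates, or within 1.5 times for counts, and 22 moved further. Part of the 54 could not move further. Leaving out 1 replicate shifts a mean of otherwise unchanged replicate values by less than 1 SD. Some settings removed or added nothing, such as leaving out replicate 3 for THSD7A, which that list lacks. The count of 54 therefore does not measure how firm the results are. The SD of the THSD7A share in bin 1 covers only 2 replicates and is very small, so most alternatives moved it. It was 48.0% with the peaks of lower p in each list (up to the median), 43.5% with each peak counted once, 80.6% for the outer 20% of the span, 48.3% for the first 50 kb, 40.2% with the own span of each replicate and 64.6% with same-strand peaks of any ID. The last adds a value of 100% from the 10 reads of replicate 3, and that setting also gave a median read position of 40.2 kb. Without 1 replicate at a time it ranged over 33.0 to 47.5%. The TMEM108 share in bin 1, 16.5%, became 25.8% for the outer 20% of the span. Leaving out 1 replicate also removes a list that clusters could match. Shared clusters then ranged over 20.3 to 29.1% for TMEM108 and 0.562 to 33.2% for THSD7A. The low values of THSD7A remain because only 1 list with the gene is left. Gene IDs called at the 5' and 3' end, 900 and 1158 in all, numbered 590 and 734 with the peaks of lower p, 225 and 218 with each peak counted once, and 59 and 145 with the outermost locus. They ranged over 540 to 1050 and 615 to 1171 without 1 replicate at a time. With Pearson correlation in place of the distance, 2 of the 3 closest gene IDs stayed the same for each gene. The other fell to rank 74 for TMEM108 (ENSG00000188641) and to rank 6 for THSD7A (ENSG00000068796). No paired analysis was possible because there is only 1 group. Reads per list limit what replicate 2 can show, and the sequencing depth is unknown.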
